A study of Homo sapiens with 9 samples.

Results

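Teneurins, latrophilins and FLRT proteins are 3 families of cell-surface adhesion molecules that bind each other, and their 10 human genes (TENM1 to TENM4, ADGRL1 to ADGRL3 and FLRT1 to FLRT3) are followed here among the 60664 genes of the count tables. The members were taken by symbol. The families were chosen because of TENM1, whose level was low in one knock-down and high in the other, so the members were chosen by its CPM values in both comparisons, which are given as a description with no test. RNA-seq libraries came from HEK293 Flp-In T-REx cells, an established human embryonic kidney line modified so that a transgene placed at a fixed genomic site can be switched on with tetracycline. The 3 groups of 3 libraries were control cells that expressed no microRNA, cells expressing a microRNA against CCDC97, and cells expressing a microRNA against TTC33, each microRNA under a tetracycline-inducible promoter. All groups, controls included, received tetracycline at 100 ng/ml for 3 days, and total RNA was extracted. The labels do not say whether the controls carry an empty transgene, whether a line was 1 clone, or whether replicates were separate cultures. The p-values therefore speak of the spread of these 9 libraries, and that spread may be technical. The study asked which transcripts change when either protein is depleted.

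Teneurins are large transmembrane proteins whose extracellular part carries EGF-like repeats, through which they form dimers, and a compact barrel of tyrosine-aspartate repeats. Latrophilins are adhesion G protein-coupled receptors, known first as receptors of a spider venom toxin, and they bind teneurins and FLRT proteins with separate domains at their outer end. FLRT proteins are single-pass molecules with leucine-rich repeats that also bind UNC5 receptors. In the nervous system these contacts take part in axon guidance, cell migration and the pairing of synapses. HEK293 cells are widely used to express these proteins and measure such contacts.

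The promoter windows of TENM1 and TENM3 are shown because these teneurins lay on opposite sides of the control in the CCDC97 knock-down. RefSeq windows on GRCh38.p14 run from 250 bases before to 50 bases after an annotated start, and 9 of the 10 members had such windows, 23 in all; ADGRL1 had none. Of these, 4 windows are printed 5′ to 3′ on the strand of the gene, with CG dinucleotides in capitals. TENM1 window 1 is chrX:125204263-125204562 on the minus strand, outside the gene's span in GENCODE release 29, and TENM1 window 2 is chrX:124963768-124964067 on the minus strand, at its start in that release. TENM3 window 1 is chr4:182143713-182144012 on the plus strand, at the start of the gene, and TENM3 window 2 is chr4:182448766-182449065 on the plus strand, inside the gene.
TENM1 window 1: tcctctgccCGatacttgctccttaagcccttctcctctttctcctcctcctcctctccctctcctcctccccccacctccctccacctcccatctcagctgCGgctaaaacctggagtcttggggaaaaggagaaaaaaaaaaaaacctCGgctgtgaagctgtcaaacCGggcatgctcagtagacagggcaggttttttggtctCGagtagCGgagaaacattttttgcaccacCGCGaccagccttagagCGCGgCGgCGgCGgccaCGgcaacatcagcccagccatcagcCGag
TENM1 window 2: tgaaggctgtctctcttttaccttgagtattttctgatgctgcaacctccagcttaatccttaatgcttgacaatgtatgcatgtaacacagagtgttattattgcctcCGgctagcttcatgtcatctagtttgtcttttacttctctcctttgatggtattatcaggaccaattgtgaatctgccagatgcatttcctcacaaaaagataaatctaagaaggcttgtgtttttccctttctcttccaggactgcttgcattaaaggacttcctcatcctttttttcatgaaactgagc
TENM3 window 1: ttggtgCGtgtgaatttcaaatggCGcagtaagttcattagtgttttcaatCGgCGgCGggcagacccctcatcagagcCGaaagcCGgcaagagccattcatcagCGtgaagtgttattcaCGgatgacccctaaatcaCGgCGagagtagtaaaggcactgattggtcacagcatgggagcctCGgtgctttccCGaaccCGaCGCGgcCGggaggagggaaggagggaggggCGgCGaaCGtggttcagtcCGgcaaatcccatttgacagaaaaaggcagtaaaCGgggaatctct
TENM3 window 2: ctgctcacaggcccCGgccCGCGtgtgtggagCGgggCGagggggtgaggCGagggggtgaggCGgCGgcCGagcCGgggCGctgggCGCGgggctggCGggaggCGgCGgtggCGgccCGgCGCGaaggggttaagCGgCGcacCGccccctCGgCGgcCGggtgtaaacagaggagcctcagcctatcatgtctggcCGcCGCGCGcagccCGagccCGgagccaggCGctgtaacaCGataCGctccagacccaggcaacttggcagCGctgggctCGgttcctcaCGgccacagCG

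The 4 windows differ in their content of CG dinucleotides. TENM1 window 1 has a GC content of 57.3% with 15 CG dinucleotides, and window 2 has 39.3% with 1. TENM3 window 1 has 55% with 22, and window 2 has 75.7% with 39. Both TENM3 windows hold 1 match to the GC box letters GGGCGG, searched on both strands, and neither TENM1 window holds one. Over all members 9 of the 23 windows hold GGGCGG, against 45.0% of 35116 windows of all genes. The TATA box letters TATAAA are in 2 of the 23 windows (11.5% of all windows) and the E box letters CACGTG in 1 (7.26%). All were searched on both strands, no match was counted for more than 1 motif, and a match is a description of the sequence only.

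Between 21764203 and 36110891 counts were assigned to genes in a library, and 18299 genes passed the filter on low counts. Each microRNA lowered its target: TTC33 went from 37.8 ± 0.772 TMM-scaled counts per 1000000 counts (CPM) in controls to 7.41 ± 1.96 CPM in its knock-down (SD, n = 3), and CCDC97 from 60.1 ± 0.55 to 15.6 ± 0.283 CPM in its own (edgeR adjusted p = 0.000106 and 1.24e-05). CCDC97 was at 80.7 ± 15.4 CPM in the TTC33 knock-down (log2 fold change 0.43 ± 0.12, SE; edgeR adjusted p = 0.0371). That call was lost in 7 of 9 fits that left out a library. TTC33 did not pass in the CCDC97 knock-down (0.19 ± 0.2, adjusted p = 0.632). Replicate 1 of each knock-down stood apart in how levels followed the GC content of transcripts. The decile of genes poorest in GC lay at a median of -0.15, 0.16 and 0.15 (log2, relative to the mean of the controls) in replicates 1, 2 and 3 of the CCDC97 knock-down and at 0.03, -0.44 and -0.48 in those of the TTC33 knock-down. The decile richest in GC lay at 0.15, -0.28 and -0.28 and at -0.09, 0.37 and 0.4. Of 11 markers related to HEK293 cells and kidney epithelium 9 had a mean of at least 1 CPM, 2 of 4 glia markers and 1 of 5 fibroblast markers did, and none of the 11 markers of endothelium, blood and liver did, with HBB at 0 in every library. Of 7 neuron markers 3 did, with a summed level of 13.3 to 15.6 CPM in the control and CCDC97 knock-down libraries and 23.6 to 25.6 CPM in the TTC33 knock-down. The summed glia markers were at 25.7 to 27.6 CPM in controls, 22.6 to 24.3 in the CCDC97 knock-down and 17.5 to 21.7 in the TTC33 knock-down. The summed HEK293-related markers were at 1220 to 1250, 1170 to 1250 and 1320 to 1450 CPM in the same order. The part of these markers in the results was not tested.

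Of the 10 members 8 passed the filter. TENM2, a teneurin of neurons, had 2 to 5 counts in each library, and FLRT2 had 1 to 9. Neither was tested, and no difference between groups could be seen at this depth. To compare genes with one another, CPM were divided by the length of each gene's annotated exons in kilobases (RPKM). In controls ADGRL2 had the highest length-scaled level of the 10, 27.3 ± 0.517 RPKM (SD, n = 3). TENM3 followed with 11.5 ± 0.0782 and ADGRL1 with 11.3 ± 0.263 RPKM. These neighbours lay within the spread of the ADGRL1 libraries. TENM1 was at 5.61 ± 0.0192, ADGRL3 at 2.48 ± 0.0504, FLRT3 at 1.6 ± 0.145, TENM4 at 0.849 ± 0.0602 and FLRT1 at 0.158 ± 0.0581 RPKM, each apart from its neighbours in the order in every control library. TENM2 and FLRT2, at 0.00702 ± 0.00189 and 0.00321 ± 0.00334 RPKM, were not separated from each other. TENM3, ADGRL2 and FLRT3 thus led their families in control cells.

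**Figure D1:**
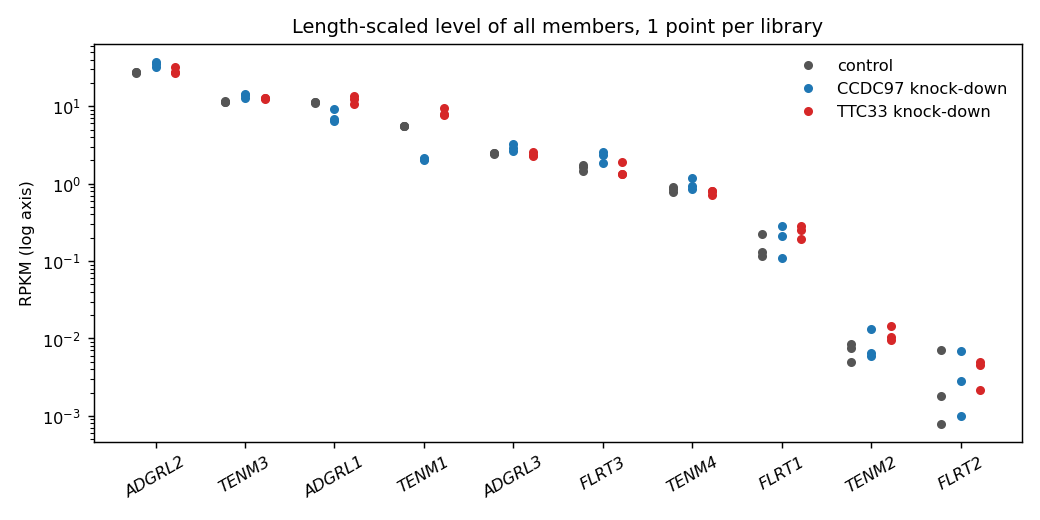
Length-scaled level (RPKM, log axis) of the 10 genes, ordered by the control mean, with 1 point per library and colours for the 3 groups. ADGRL2 is highest at 27.3 RPKM in controls, and TENM1 is the gene whose 3 groups lie farthest apart among the 8 with more than a few counts.

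TENM1 is an X-linked teneurin (ENSG00000009694; GRCh38 chromosome X, 124375903 to 124963817, minus strand, 32 exons in its longest coding transcript). Its level was 72.6, 72.2 and 72.2 CPM in control replicates 1, 2 and 3. It was 26.2, 27.3 and 28.1 CPM in the CCDC97 knock-down and 123, 100 and 102 CPM in the TTC33 knock-down. The 3 groups did not overlap, and the control libraries spread by less than 1 CPM, with TTC33 knock-down replicate 1 the highest of all 9. The CCDC97 knock-down held 37.6% of the control level (log2 fold change -1.41 ± 0.09, SE), and the TTC33 knock-down 1.5 times the control level (0.58 ± 0.08). The TTC33 knock-down exceeded the CCDC97 knock-down by 2.00 ± 0.09 on the log2 scale. These values chose the gene, so no test is given.

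The depth behind the TENM1 values was 581 to 3823 counts per library. Leaving out each library in turn gave log2 fold changes of -1.44 to -1.39 in the CCDC97 knock-down and 0.48 to 0.64 in the TTC33 knock-down. The transcript has a GC content of 42.2%, and the correction for GC content and length gave -1.42 and 0.62. TENM1 shares 241 exon bases with STAG2, a cohesin subunit gene on the opposite strand, and whether the counting used strand is not given in the sources used here. STAG2 was at 405, 409 and 410 CPM in controls, 395, 523 and 503 CPM in the CCDC97 knock-down and 421, 333 and 320 CPM in the TTC33 knock-down. Its log2 fold change was 0.22 in the CCDC97 knock-down (adjusted p = 0.335) and -0.19 in the TTC33 knock-down (adjusted p = 0.304), and STAG2 was lower in the TTC33 than in the CCDC97 knock-down (-0.40, edgeR adjusted p = 0.0351). Those differences were opposite in sign to the TENM1 differences. With GC content and length corrected they were 0.18 (adjusted p = 0.0267), 0.07 (adjusted p = 0.36) and -0.11 (adjusted p = 0.133), and without TTC33 knock-down replicate 1 the second was -0.32 (adjusted p = 0.0235). The third lost its call without 1 control (replicate 1, 2 or 3; 0.0573, 0.0576 or 0.0574), without replicate 2 or 3 of the CCDC97 knock-down (0.138 or 0.115) and without replicate 2 or 3 of the TTC33 knock-down (0.133 or 0.129).

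**Figure D2:**
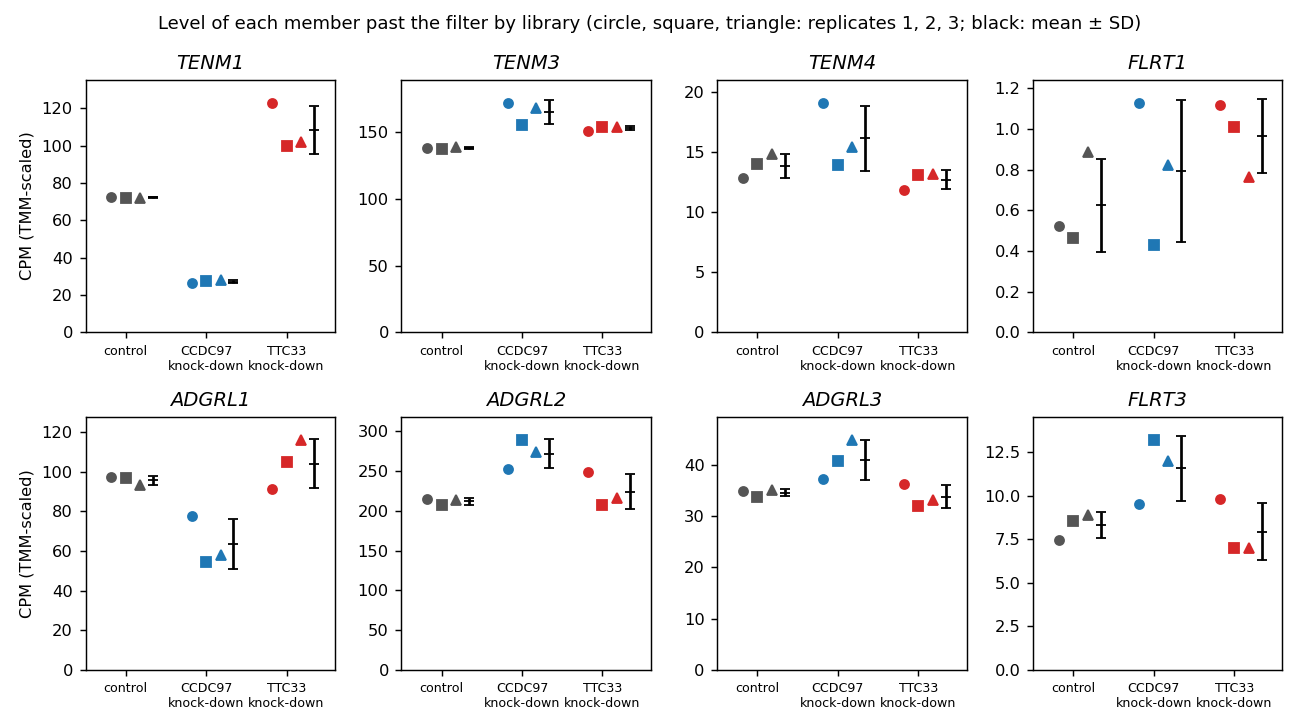
Level (CPM, axes from 0) of the 8 members past the filter in each library, with circles, squares and triangles for replicates 1, 2 and 3 and the mean ± SD of each group in black. The 3 groups of TENM1 do not overlap (26.2 to 28.1, 72.2 to 72.6 and 100 to 123 CPM), and the CCDC97 knock-down libraries of ADGRL1 lie below every control library.

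TENM3, a teneurin known for wiring of the visual system and hippocampus, was the most abundant of its family (ENSG00000218336; chromosome 4, 182143987 to 182803024, plus strand, 28 exons). It was at 138, 137 and 139 CPM in controls, 172, 155 and 168 CPM in the CCDC97 knock-down, and 151, 154 and 154 CPM in the TTC33 knock-down. All 6 knock-down libraries were above all 3 controls. TENM3 rose by 0.26 ± 0.06 on the log2 scale in the CCDC97 knock-down (edgeR's quasi-likelihood test with Benjamini-Hochberg adjustment over the 18299 genes, adjusted p = 0.0404). The TTC33 knock-down was at 0.15 ± 0.06 (adjusted p = 0.121), and the knock-downs did not pass the test against each other (-0.10 ± 0.06, adjusted p = 0.239). The test between the knock-downs did pass under 2 of the alternative settings, neither of which left out a single library. The call in the CCDC97 knock-down depended on single libraries. Without 1 control (replicate 1, 2 or 3) the adjusted p was 0.176, 0.188 or 0.148, without replicate 2 or 3 of the CCDC97 knock-down it was 0.0524 or 0.136, and without TTC33 knock-down replicate 2 or 3 it was 0.0717 or 0.064. Upper-quartile library factors gave 0.0594, and testing all genes with no filter gave 0.159. The size kept within 0.23 to 0.29 when single libraries were left out, and the correction for GC content and length gave 0.28 (adjusted p = 0.00076). TENM3 shares 115 exon bases with TENM3-AS1 on the opposite strand, which was at 9.16 ± 0.256 CPM in controls and 8.91 ± 1.59 CPM in the CCDC97 knock-down, and 118 with an unnamed gene that had at most 1 count.

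TENM4, a teneurin with a role in oligodendrocyte differentiation (ENSG00000149256; chromosome 11, 78652831 to 79440948, minus strand, 34 exons), was at 12.8, 14.0 and 14.8 CPM in controls. It was at 19.1, 13.9 and 15.4 CPM in the CCDC97 knock-down and 11.8, 13.1 and 13.2 CPM in the TTC33 knock-down. Each knock-down overlapped the controls. All CCDC97 knock-down libraries were above all TTC33 knock-down libraries, and CCDC97 knock-down replicates 1 and 3 were the highest of all. No comparison passed: the log2 fold change was 0.22 ± 0.12 in the CCDC97 knock-down (adjusted p = 0.335), -0.13 ± 0.12 in the TTC33 knock-down (adjusted p = 0.497) and -0.35 ± 0.12 between the knock-downs (adjusted p = 0.0626). With GC content and length corrected these were 0.3 (adjusted p = 0.0162), -0.29 (adjusted p = 0.0142) and -0.59 (adjusted p = 8.22e-05). The last comparison also passed without CCDC97 knock-down replicate 2 (-0.45, adjusted p = 0.0492) and by the DESeq2 Wald test (-0.36, adjusted p = 0.0361).

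The teneurin make-up of the cells shifted with TENM1. Of the summed teneurin RPKM, TENM1 held 31.4%, 31.3% and 31.0% in control libraries. Its share was 11.6%, 13.3% and 12.7% in the CCDC97 knock-down and 41.6%, 36.3% and 36.6% in the TTC33 knock-down. TENM3 held 64.0% ± 0.171 in controls, 81.6% ± 0.218 in the CCDC97 knock-down and 58.2% ± 2.64 in the TTC33 knock-down (SD, n = 3). The summed teneurin level was 18 ± 0.102 RPKM in controls, 16.9 ± 0.845 in the CCDC97 knock-down and 22 ± 0.794 in the TTC33 knock-down. These shares contain the values that chose TENM1 and carry no test. In bulk RNA, fewer cells with a transcript and less of it per cell cannot be told apart.

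**Figure D3:**
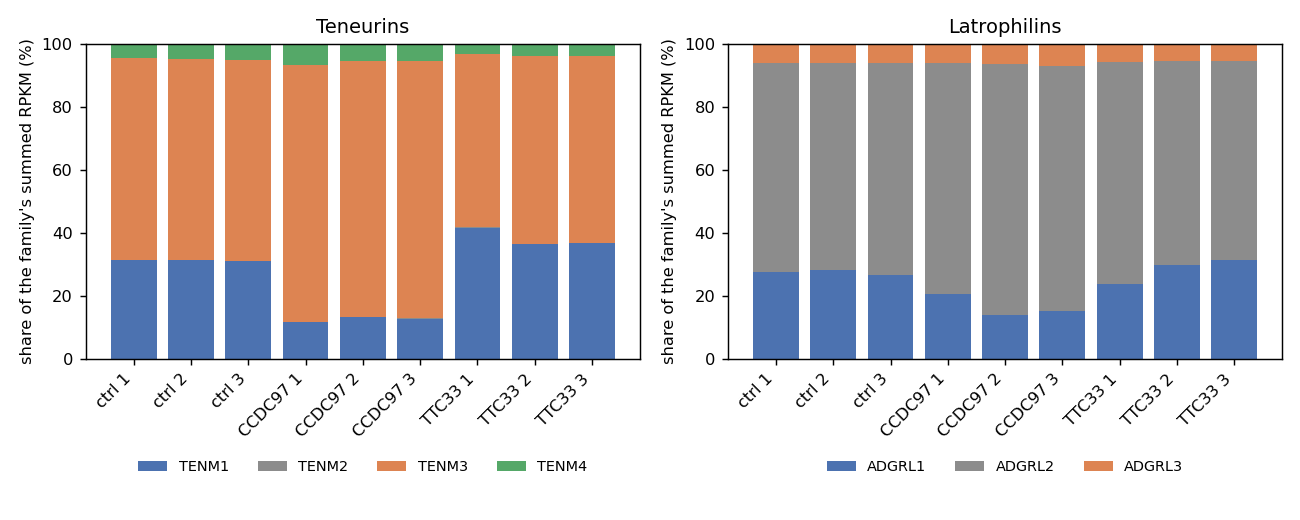
Share (%) of each gene in the summed RPKM of the teneurins (left) and latrophilins (right), 1 stacked bar per library. TENM1 holds 31.0% to 31.4% in controls and 11.6% to 13.3% in the CCDC97 knock-down, where ADGRL1 also holds less than in every control.

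ADGRL1, the latrophilin that binds the venom toxin with high affinity (ENSG00000072071; chromosome 19, 14147743 to 14206187, minus strand, 24 exons), was at 97.2, 96.8 and 93.2 CPM in controls. It was at 77.7, 54.2 and 57.9 CPM in the CCDC97 knock-down and 91.3, 105 and 116 CPM in the TTC33 knock-down. The CCDC97 knock-down libraries were all below the controls, with replicate 1 the closest to them, while the TTC33 knock-down libraries lay on both sides of the controls. ADGRL1 fell to 66.1% of control in the CCDC97 knock-down (log2 fold change -0.60 ± 0.13, SE; edgeR adjusted p = 0.0277). It did not pass in the TTC33 knock-down (0.12 ± 0.13, adjusted p = 0.549). The test of the difference between the knock-downs gave 0.72 ± 0.13 (edgeR adjusted p = 0.00442), which kept its call in all 9 fits that left out a library (0.61 to 0.89).

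The fall of ADGRL1 against control did not keep its call in 5 of those 9 fits. Without 1 control (replicate 1, 2 or 3) the adjusted p was 0.118, 0.117 or 0.0883, and without replicate 2 or 3 of the CCDC97 knock-down it was 0.123 or 0.112, with log2 fold changes of -0.62 to -0.50. Without replicate 1 of both knock-downs it was -0.77 (edgeR adjusted p = 5.45e-09), in a fit that called 6675 genes, against 835 in the main fit. ADGRL1 has the highest transcript GC content of the 10 members, 61.4%, and the trend over GC content and length at its values was 0.11, -0.3 and -0.26 (log2) in replicates 1, 2 and 3 of the CCDC97 knock-down and 0, 0.33 and 0.38 in those of the TTC33 knock-down. With that trend removed the log2 fold change was -0.47 in the CCDC97 knock-down (adjusted p = 2.81e-05) and 0.34 between the knock-downs (adjusted p = 0.00019). The TTC33 knock-down value turned to -0.12 (adjusted p = 0.0878). The gene shares 473 exon bases with ADGRL1-AS1 on the opposite strand, which was at 2.36 ± 0.262 CPM in controls and 2.55 ± 0.353 CPM in the CCDC97 knock-down, where it did not pass (adjusted p = 0.775).

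ADGRL2, the most abundant latrophilin (ENSG00000117114; chromosome 1, 81306160 to 81992436, plus strand, 26 exons), was at 215, 207 and 214 CPM in controls. It was at 253, 289 and 274 CPM in the CCDC97 knock-down and 249, 207 and 216 CPM in the TTC33 knock-down. Its CCDC97 knock-down libraries were above every control, and TTC33 knock-down replicate 1 was too. TTC33 knock-down replicates 2 and 3 lay close to the controls, with replicate 3 just above the highest control. ADGRL2 rose by 0.36 ± 0.08 on the log2 scale in the CCDC97 knock-down (edgeR adjusted p = 0.0306), did not pass in the TTC33 knock-down (0.08 ± 0.08, adjusted p = 0.53), and was lower in the TTC33 than in the CCDC97 knock-down (-0.28 ± 0.08, adjusted p = 0.0304). The rise lost its call without 1 control (replicate 1, 2 or 3) (adjusted p = 0.128, 0.148 or 0.114) and without replicate 2 or 3 of the CCDC97 knock-down (0.134 or 0.106), at log2 fold changes of 0.31 to 0.37. The difference between the knock-downs lost it without any 1 control (0.0549 to 0.0557), without replicate 2 or 3 of the CCDC97 knock-down (0.114 or 0.0862) and without TTC33 knock-down replicate 2 or 3 (0.131 or 0.106). With GC content (40.9% in this transcript) and length corrected, the values were 0.33 (adjusted p = 0.000193) in the CCDC97 knock-down, 0.18 (adjusted p = 0.00855) in the TTC33 knock-down and -0.15 (adjusted p = 0.0239) between them.

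ADGRL3, a latrophilin that genetic studies link to attention deficit disorder (ENSG00000150471; chromosome 4, 61201258 to 62078335, plus strand, 25 exons), was at 34.9, 33.8 and 35.1 CPM in controls. It was at 37.2, 40.8 and 44.9 CPM in the CCDC97 knock-down and 36.3, 32.0 and 33.1 CPM in the TTC33 knock-down. The CCDC97 knock-down libraries were above all others. Against control, 0.24 ± 0.09 (log2) in the CCDC97 knock-down was not past the threshold (edgeR adjusted p = 0.144), and neither was -0.03 ± 0.09 in the TTC33 knock-down (adjusted p = 0.82). The first passed without CCDC97 knock-down replicate 1 (0.3, adjusted p = 0.0482) and with GC content and length corrected (0.21, adjusted p = 0.0397). Between the knock-downs ADGRL3 was lower in the TTC33 knock-down (-0.28 ± 0.09, adjusted p = 0.0457), and this call was lost without any 1 control (0.0768 to 0.078), without replicate 2 or 3 of the CCDC97 knock-down (0.114 or 0.155) and without TTC33 knock-down replicate 2 or 3 (0.166 or 0.132). With GC content (37.7%) and length corrected the difference was -0.08 (adjusted p = 0.446), and the value in the TTC33 knock-down turned to 0.14. ADGRL3-AS1, which shares 153 exon bases with it on the opposite strand, had 0 counts in all 9 libraries.

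Within the latrophilins, ADGRL1 and ADGRL2 thus moved apart in the CCDC97 knock-down, at -0.47 and 0.33 (log2) with GC content and length corrected. Both main calls were lost in 5 of 9 fits that left out a library. The shares that follow are not corrected for GC content. ADGRL1 held 27.5%, 28.1% and 26.7% of the summed latrophilin RPKM in controls, and 20.6%, 13.7% and 15.0% in the CCDC97 knock-down. Its share was 23.7%, 29.9% and 31.2% in the TTC33 knock-down, on both sides of the controls. ADGRL2 held 66.5% ± 0.629 in controls, 77.1% ± 3.39 in the CCDC97 knock-down and 66.2% ± 3.83 in the TTC33 knock-down (SD, n = 3). The summed level was 41.1 ± 0.524, 45.5 ± 1.08 and 43.6 ± 2.02 RPKM in the same order.

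FLRT3 was the most abundant FLRT gene in these cells (ENSG00000125848; chromosome 20, 14322988 to 14337616, minus strand, 2 exons, within MACROD2 on the opposite strand). Its protein binds latrophilins and UNC5 receptors. It was at 7.46, 8.54 and 8.91 CPM in controls, 9.55, 13.2 and 12 CPM in the CCDC97 knock-down, and 9.83, 6.97 and 7.0 CPM in the TTC33 knock-down. The CCDC97 knock-down libraries were above all controls, and TTC33 knock-down replicate 1 stood above replicates 2 and 3. FLRT3 was not past the threshold against control in the CCDC97 knock-down (0.48 ± 0.16, edgeR adjusted p = 0.113) or in the TTC33 knock-down (-0.06 ± 0.16, adjusted p = 0.825), and was lower in the TTC33 than in the CCDC97 knock-down (-0.54 ± 0.16, adjusted p = 0.0356).

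The first of these FLRT3 values passed without CCDC97 knock-down replicate 1 (0.61, adjusted p = 0.0371) and without TTC33 knock-down replicate 1 (0.48, adjusted p = 0.0255). It also passed with no filter on low counts (0.46, adjusted p = 0.0276), in a fit of the 2 groups alone (0.47, adjusted p = 0.0498) and with GC content and length corrected (0.44, adjusted p = 0.00615). The difference between the knock-downs lost its call without 1 control (replicate 1, 2 or 3) (0.0512, 0.0575 or 0.0544), without replicate 2 or 3 of the CCDC97 knock-down (0.149 or 0.1) and without TTC33 knock-down replicate 2 or 3 (0.137 or 0.126). With GC content (39.2%) and length corrected it was -0.35 (adjusted p = 0.0167). The value in the TTC33 knock-down turned to 0.09 there. MACROD2, which surrounds FLRT3, was at 2.47 ± 0.208, 2.49 ± 0.322 and 2.47 ± 0.281 CPM in the control, CCDC97 knock-down and TTC33 knock-down libraries.

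FLRT1 (ENSG00000126500; chromosome 11, 64103188 to 64119173, plus strand, 2 exons, within MACROD1 on the opposite strand) had 13 to 35 counts per library. It was at 0.525, 0.463 and 0.888 CPM in controls, 1.13, 0.429 and 0.823 CPM in the CCDC97 knock-down, and 1.12, 1.01 and 0.765 CPM in the TTC33 knock-down. All groups overlapped. MACROD1 was at 7.26 ± 0.362, 8.15 ± 1.45 and 6.84 ± 0.862 CPM in the same order. The FLRT1 log2 fold changes of 0.35 ± 0.37 in the CCDC97 knock-down (edgeR adjusted p = 0.644), 0.65 ± 0.35 in the TTC33 knock-down (adjusted p = 0.226) and 0.30 ± 0.35 between them (adjusted p = 0.559) were not distinguishable from no change at this depth. FLRT1 also shares 538 exon bases with an unnamed gene on the opposite strand, which had 6 to 13 counts, and 460 with one on its own strand, which had at most 1.

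**Figure D4:**
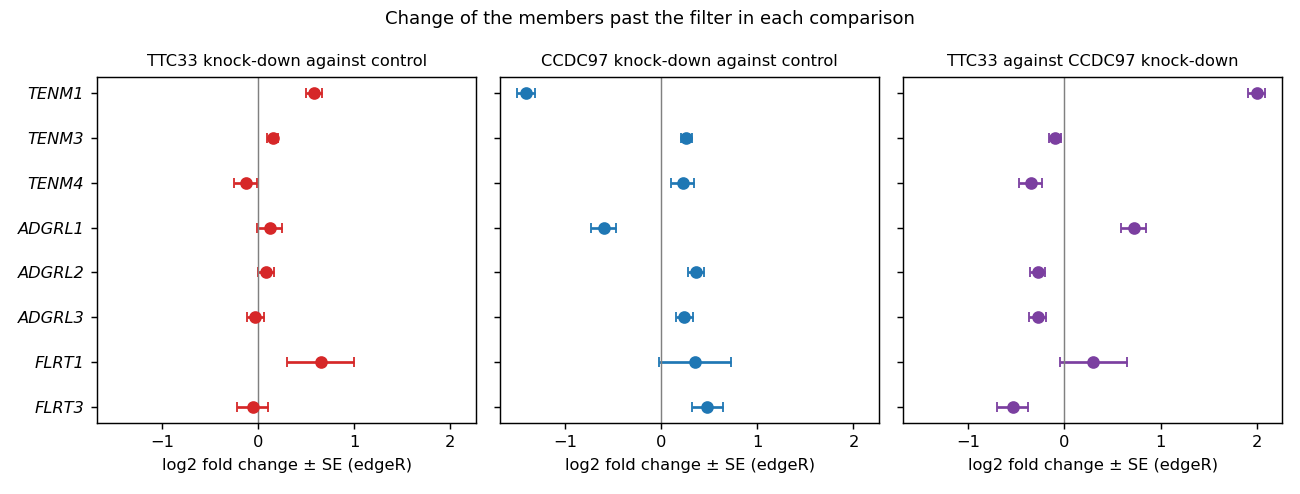
Log2 fold change ± SE (edgeR) of the 8 members past the filter in the 3 comparisons. TENM1 stands at -1.41 in the CCDC97 knock-down and 0.58 in the TTC33 knock-down, and ADGRL1 is the only other gene below 0 in the CCDC97 knock-down.

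Leaving TENM1 aside, 7 members were tested. Against control, 2 of the 7 rose in the CCDC97 knock-down (TENM3 and ADGRL2), where 2.07% of all genes tested did, and 1 fell (ADGRL1), where 2.49% did. The median log2 fold change of the 7 was 0.26, and that of all genes was 0.0. None of the 7 passed edgeR's test in either direction in the TTC33 knock-down, where 6.5% of all genes rose and 5.44% fell. At an unadjusted p under 0.05 edgeR had 1 of the 7, TENM3. DESeq2 also called 0 after adjustment and had 1 at an unadjusted p under 0.05. The median of the 7 was 0.08. In the TTC33 against the CCDC97 knock-down 1 of the 7 was higher (ADGRL1), where 11.3% of all genes were, and 3 were lower (ADGRL2, ADGRL3 and FLRT3), where 10.2% were. Their median there was -0.28. Both comparisons with control use the same 3 control libraries.

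The number of members called moved with the processing. Of the 7, 6 passed in the CCDC97 knock-down with GC content and length corrected, 5 without replicate 1 of both knock-downs, and between 0 and 5 when a single library was left out. It was 0 without 1 control (replicate 1, 2 or 3) and without replicate 2 or 3 of the CCDC97 knock-down, and 5 without CCDC97 knock-down replicate 1. In the main fit 835 of the 18299 genes tested were called in this knock-down. That number was 3533 with the correction, 6675 without replicate 1 of both knock-downs and 203 to 1981 without 1 library. The 0 of the TTC33 knock-down became 2 with GC content and length corrected (ADGRL2 and TENM4). Without replicate 1 of both knock-downs 2 others passed (TENM3 at 0.16, edgeR adjusted p = 0.00406, and ADGRL1 at 0.21, adjusted p = 0.00191). All genes called in those fits numbered 4970 and 9129, against 2186 of the 18299 tested in the main fit. Between the knock-downs the 4 became 1, ADGRL1, in a fit of those 2 groups alone, and likewise without any 1 control library, without CCDC97 knock-down replicate 3 and without TTC33 knock-down replicate 2 or 3; without CCDC97 knock-down replicate 2 there were 2.

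**Figure D5:**
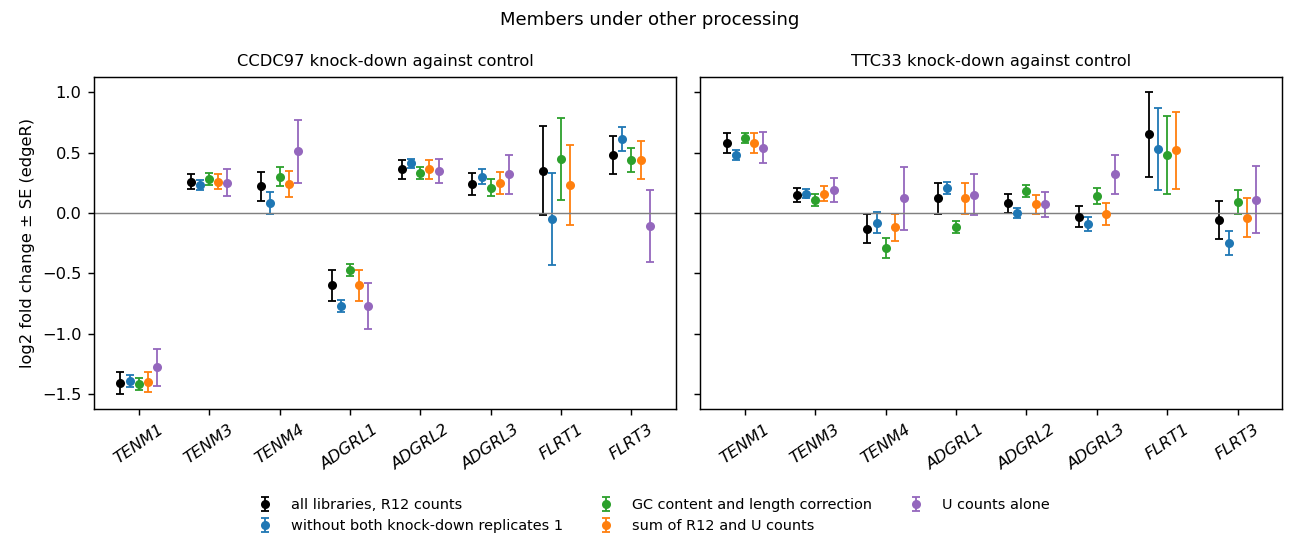
Log2 fold change ± SE (edgeR) of the 8 members past the filter against control in 5 ways of processing, for the CCDC97 (left) and TTC33 (right) knock-downs. TENM1 keeps its side of 0 in each, between -1.42 and -1.28 on the left and between 0.48 and 0.62 on the right, while ADGRL1, ADGRL3 and FLRT3 cross 0 on the right with the correction for GC content and length.

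Genes for proteins that bind or act with the 3 families, and for other synaptic adhesion molecules, were taken from a list of 54. Of these, 42 were tested. The list holds UNC5 and netrin receptors, ROBO and FGF receptors, neurexins, neuroligins, contactins, other leucine-rich synaptic molecules, scaffolds, G proteins and teneurin-processing factors. The listed genes are called partners for short, and a place on the list does not mean that a protein binds a member. Of the 42, 8 rose and 2 fell in the TTC33 knock-down, where 6.5% of all genes tested rose and 5.44% fell, and the median of the 42 was 0.14 on the log2 scale, against 0.0 for all genes. The list was chosen with earlier results of these data known, so its counts are a description. In each knock-down, the partners given with their levels had the smallest adjusted p in their direction. SLITRK5 and SLITRK3, leucine-rich synaptic adhesion molecules that bind receptor tyrosine phosphatases, were among those that rose. SLITRK5 went from 0.442, 0.463 and 0.571 CPM in controls to 4.47, 3.57 and 4.59 CPM (log2 fold change 3.09 ± 0.18, edgeR adjusted p = 3.43e-06). SLITRK3 went from 0.0829, 0.0816 and 0.159 CPM, a few counts per library, to 0.868, 0.589 and 0.574 CPM (2.65 ± 0.41, adjusted p = 0.00299). GNAO1, the alpha subunit of the neuronal G protein Go, rose from 16.1 ± 0.757 to 39.8 ± 4.48 CPM (1.31 ± 0.14, adjusted p = 0.000327). These 3 genes are active in neurons. The summed neuron markers were also higher in these libraries (23.6 to 25.6 CPM), as were the summed HEK293-related markers (1320 to 1450 CPM). PTPRD and SHANK2 of the same list fell, and a link between the listed genes and the markers was not tested.

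In the same knock-down PTPRD, a receptor tyrosine phosphatase that binds SLITRK proteins, fell from 70.0 ± 1.76 to 51.9 ± 3.96 CPM (-0.43 ± 0.08, edgeR adjusted p = 0.0063). SHANK2, a postsynaptic scaffold that latrophilins bind, fell from 5.69 ± 0.548 to 3.99 ± 0.174 CPM (-0.51 ± 0.12, adjusted p = 0.0222). The SHANK2 call was lost without 1 control (replicate 1, 2 or 3) (0.0718, 0.0599 or 0.0948) and without TTC33 knock-down replicate 2 or 3 (0.0788 or 0.0845). The other partners that rose were UNC5A (0.85, adjusted p = 0.0187), a FLRT-binding receptor, SHANK1 (1.29, adjusted p = 0.0219), GNA11 (0.43, adjusted p = 0.0279), DAG1 (0.32, adjusted p = 0.0477) and ROBO1 (0.2, adjusted p = 0.0494), named after their values were seen. Whether these calls hold when a library is left out was not followed, and those of DAG1 and ROBO1 lay just under the threshold. None of the 5 neurexins and neuroligins tested passed in edgeR, which had 3 of them at an unadjusted p under 0.05, and DESeq2 called 1.

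Depletion of CCDC97 came with 4 of the 42 higher and 1 lower, where 2.07% and 2.49% of all genes tested were, and with a median of -0.02, against 0.0 for all genes. CNTN1, a contactin of axons, rose from 22.9, 20.9 and 22.5 CPM to 34.3, 40.4 and 37.0 CPM (0.75 ± 0.11, edgeR adjusted p = 0.00518). ROBO2, an axon guidance receptor for SLIT proteins, rose from 38.9 ± 0.611 to 52.2 ± 1.1 CPM (0.42 ± 0.07, adjusted p = 0.00859), and RHOA, a small GTPase, from 327 ± 6.69 to 409 ± 19.1 CPM (0.32 ± 0.06, adjusted p = 0.0174). The ROBO2 call was lost without 1 control (replicate 1, 2 or 3) (0.0718, 0.0565 or 0.0597). The RHOA call was lost without 1 control (replicate 1, 2 or 3) (0.116, 0.0946 or 0.0797) and without replicate 2 or 3 of the CCDC97 knock-down (0.0684 or 0.0707). The fourth was UNC5C, a netrin receptor of the UNC5 group, named after its values were seen (0.33 ± 0.07, adjusted p = 0.0265). Its call was not followed in the fits that left out a library.

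GNAO1 fell in the CCDC97 knock-down, to 13.5, 9.32 and 9.29 CPM from 16.9, 15.4 and 16.0 CPM (-0.58 ± 0.15, edgeR adjusted p = 0.0482). That call was lost in 7 of 9 fits: without 1 control (replicate 1, 2 or 3) (0.185, 0.136 or 0.141), without replicate 2 or 3 of the CCDC97 knock-down (0.195 or 0.161) and without TTC33 knock-down replicate 2 or 3 (0.0752 or 0.0534), and with upper-quartile factors (0.057). GNAO1 was thus, like TENM1, below control in one knock-down and above it in the other, and the test between the knock-downs gave 1.89 ± 0.15 (adjusted p = 2.12e-05). Between the knock-downs 12 of the 42 were higher and 8 lower in the TTC33 knock-down, where 11.3% and 10.2% of all genes tested were, with a median of 0.11, against 0.0 for all genes.

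Other adhesion G protein-coupled receptors, of the same receptor class as the latrophilins, were read from a list of 12, of which 10 were tested. Of the 10, 2 rose in the TTC33 knock-down, where 6.5% of all genes tested did: CELSR3, a flamingo cadherin of axon tracts (1.58 ± 0.14, edgeR adjusted p = 6.82e-05), and ADGRB3, a receptor that binds C1q-like proteins at synapses (2.29 ± 0.44, adjusted p = 0.00928). Both were named after their values were seen, and this list too was chosen with earlier results of these data known. Their calls were not followed in the fits that left out a library. None of the 10 passed in edgeR in the CCDC97 knock-down, where 2.07% of all genes rose and 2.49% fell, and 3 had an unadjusted p under 0.05 (ADGRB1, ADGRB2 and CELSR1, at adjusted p = 0.198, 0.169 and 0.18). DESeq2 called 0 after adjustment and had 4 at an unadjusted p under 0.05.

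The genes whose log2 CPM ran most alike with a member over the 9 libraries are given as a description, over the 11347 genes whose mean was 5 CPM or more. These correlations share the libraries, their 3 groups and the GC trend, so they carry no p. For TENM1 the closest were ABAT (Pearson's r = 0.991), S100A10 (0.988) and MARCHF8 (0.988). ABAT, which breaks down the transmitter GABA, was at 31.9 ± 0.418 CPM in controls, 19.9 ± 0.969 in the CCDC97 knock-down and 37.7 ± 3.08 in the TTC33 knock-down. For TENM3 they were DCAF1 (0.954), JAG1 (0.95) and NOTCH2 (0.938), for ADGRL2 BUB1 (0.988), CNTN1 (0.988) and TRPS1 (0.98), and for FLRT3 PPP6R3 (0.992), PIGC (0.989) and RBMXL1 (0.988). CNTN1, close to ADGRL2 here, is also on the list of partners.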

How the data were processed

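The authors deposited raw gene counts. Trimmomatic 0.39, HISAT2 and HTSeq 2.0.1 were used with GRCh38, per the submitters' processing notes. How HTSeq treated strand, and on which annotation release, is not given in the sources used here. Every library came with an R12 table and a smaller U table; no source states what the letters mean, and R12 counts were analysed. Rows that name no gene held 33.4% to 57.9% of the R12 counts and were left out.

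Genes were kept by filterByExpr (18299 of 60664) and tested with the quasi-likelihood F test of edgeR 4.0.16 in R 4.3.3, with TMM factors and 1 term per group over all 9 libraries (6 residual degrees of freedom, common biological coefficient of variation 0.109). The tests are two-sided, with Benjamini-Hochberg adjustment over all genes tested and a threshold of 0.05. The absolute fold change over the root of F gave the standard error. CPM are counts per 1000000 TMM-scaled library counts. RPKM divide CPM by exon length in GENCODE release 29, from which coordinates, GC content and overlaps were also taken; the release behind the counts may differ. The test was checked on simulated counts, drawn with the same spread for every gene and no trend over GC content. The check therefore does not cover the GC trends that differ between replicates here.

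Alternatives were DESeq2 1.42.0 (size factors, Wald test), upper-quartile factors, other filters, a fit of 2 groups, the replicate number as a block, a correction for GC content and length (mgcv 1.9.3, values for 98.6% of genes tested), U counts or the sum of both tables, and leaving out libraries. The members and the gene lists were chosen with earlier results of these data known. Named genes are the members, the targets, genes that overlap members, the 3 listed partners with the smallest adjusted p in each direction against control, and the 3 genes most alike with TENM1 and with each family's highest member by mean CPM (at least 5 CPM).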

Additional observations from a re-analysis of the deposited data

Results flagged for a closer look

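The knock-downs were apart in 5 genes, 4 of them by a test. TENM1 was below control in every CCDC97 knock-down library and above it in every TTC33 knock-down library, a difference of 2.00 on the log2 scale, which was not tested because these values chose the gene. For 4 genes the edgeR test of the TTC33 against the CCDC97 knock-down passed: ADGRL1 (0.72), ADGRL2 (-0.28), ADGRL3 (-0.28) and FLRT3 (-0.54). In that test 11.3% of all genes tested were higher and 10.2% lower, so such calls are not particular to the members. With GC content and length corrected, the differences of ADGRL1, ADGRL2 and FLRT3 were 0.34, -0.15 and -0.35 and passed, and that of ADGRL3 was -0.08 and did not (adjusted p = 0.446). The ADGRL1 call held in all 9 fits that left out a library, while those of ADGRL2, ADGRL3 and FLRT3 were each lost in 7 of the 9, and the FLRT3 difference turned to 0.22 from U counts.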

How the results depend on the processing

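Genes called in the TTC33 knock-down numbered 2186, and 3821 with no filter on low counts, 756 with the replicate block, 4970 with GC content and length corrected, 4529 with both, 362 from U counts alone, 9129 without replicate 1 of both knock-downs, and 552 to 6512 without 1 library. In the CCDC97 knock-down they numbered 835, and 1369 with no filter, 1471 by DESeq2's Wald test, 1339 in a fit of the 2 groups, 240 with the replicate block, 3533 with GC content and length corrected, 3173 with both, 69 from U counts, 6675 without replicate 1 of both, and 203 to 1981 without 1 library. Between the knock-downs they numbered 3943, and 1479 in a fit of the 2 groups, 1857 with the block, 709 from U counts, 10362 without replicate 1 of both, and 1528 to 7767 without 1 library.

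Of the 7 members beside TENM1, 0 were called in the TTC33 knock-down, and 2 with GC content and length corrected, with that and the block, or without replicate 1 of both. In the CCDC97 knock-down 3 were called, and 0 with the replicate block or from U counts, 6 with the correction with or without the block, 5 without replicate 1 of both, and 0 to 5 without 1 library. Between the knock-downs 4 were called, and 1 in a fit of the 2 groups, with the block or from U counts, and 1 to 4 without 1 library. With the block, adjusted p in the CCDC97 knock-down was 0.0943 for ADGRL1, 0.106 for ADGRL2 and 0.125 for TENM3. Deviations of libraries with the same number correlated at most at 0.09 between a knock-down and control. Between the knock-downs they correlated at -0.5, -0.11 and -0.14 for replicates 1, 2 and 3. These are deviations from group means, and a batch that acted differently in each group could give such values. Whether the numbers pair the libraries is therefore not known.

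Log2 fold changes that turned in the TTC33 knock-down were those of ADGRL1 (-0.12 with the correction, with or without the block), ADGRL3 (0.14 likewise, 0.32 from U counts), FLRT3 (0.09, 0.1 with the block, 0.11 from U counts, -0.25 to 0.02 without 1 library), TENM4 (0.12 from U counts) and STAG2 (0.07 with the correction, with or without the block). In the CCDC97 knock-down FLRT3 turned from U counts (-0.11) and FLRT1 without replicate 1 of both (-0.05) or without 1 library (-0.04 to 0.68). Between the knock-downs FLRT3 turned from U counts (0.22) and FLRT1 without 1 library (-0.03 to 0.7). The causes were not tested. TENM1 kept its direction in each alternative run, with -1.28 and 1.83 from U counts in the CCDC97 knock-down and between the knock-downs, and 0.48 in the TTC33 knock-down and 1.87 between them without replicate 1 of both. Depth limits TENM2, FLRT2 and FLRT1.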

Other observations

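The U tables, which hold 6.55% to 11.9% of the counts of both tables, were read for the members on their own. TENM1 was at 79.4, 71.2 and 63.0 U CPM in controls, 26.8, 30.6 and 31.1 in the CCDC97 knock-down and 100, 116 and 93.0 in the TTC33 knock-down, again with no overlap between the groups. ADGRL1 was at 66.8, 65.6 and 75.2 U CPM in controls, 53.0, 31.0 and 36.6 in the CCDC97 knock-down and 63.9, 85.2 and 80.0 in the TTC33 knock-down. FLRT3, with 11 to 35 U counts per library, was at 8.85 ± 2.76, 8.01 ± 1.64 and 9.28 ± 0.478 U CPM in the same order of groups (SD, n = 3), with all groups overlapping. These tables come from the same libraries and are no further replicates.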
